A study of Mus musculus with 16 samples.

Results

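The IFITM genes encode small interferon-induced transmembrane proteins, and 4 of them, Ifitm1, Ifitm2, Ifitm3 and Ifitm6, were followed by their symbols among the 24421 gene symbols counted in each library. All 4 were found and had enough reads to be tested in every comparison. The libraries came from spleens of C57BL/6 mice that carried tumors of B16.F10, a mouse melanoma line. Monocytic and granulocytic myeloid-derived suppressor cells (M-MDSCs and G-MDSCs), immature myeloid cells that dampen T cell responses and are marked Ly6C and Ly6G in the sample labels, were sorted from 4 wild type (WT) and 4 Nlrp3-/- mice, which made 4 groups of 4 libraries. All 4 groups carried the tumor. The Nlrp3-/- mice lack Nlrp3, the sensor of an inflammasome that activates caspase-1, in every tissue and not only in MDSCs, through an EGFP cassette placed at its start codon, and the study's methods describe its mice as matched for sex and age. The labels give no age and no day of the sort. Each library held RNA of 1 mouse, and both subsets of each mouse were sequenced.

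IFITM proteins sit in the plasma membrane and in endosomes and lysosomes, where they stiffen the membrane and block the fusion of many enveloped viruses. Type I interferon raises their transcripts through a complex of transcription factors, among them Irf9, at the interferon-stimulated response element (ISRE), and interferon gamma does so through the gamma-activated site (GAS). Ifitm1 protein is found mainly at the cell surface and Ifitm3 protein mainly in late endosomes, with Ifitm2 closely related to Ifitm3. Ifitm6 is a rodent gene of the same cluster. Myeloid cells can carry IFITM transcripts without infection, so their level is not by itself a record of interferon exposure.

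The 4 genes lie in 1 cluster on chromosome 7 of the mouse genome (mm10, GENCODE annotation). Ifitm2 runs on the minus strand from 140954837 to 140955987 and Ifitm1 on the plus strand from 140967221 to 140969825. Ifitm3 follows on the minus strand from 141009586 to 141010770 and Ifitm6 on the minus strand from 141015699 to 141017924. Members are similar in sequence. Between pairs of them, 62.8% to 81.6% of the aligned coding bases were identical, the highest share between Ifitm1 and Ifitm3. The library kit reads the 3′ end of a transcript, in reads of up to 75 bases. Within the last 400 bases of the members' transcripts, the longest run shared by any pair was 39 bases, between Ifitm1 and Ifitm3, and no window of 75 bases was found in another member. Of 326 such windows, 50 of Ifitm2 and 4 of Ifitm3 also occurred in pseudogenes or other predicted genes, against 0 for Ifitm1 and Ifitm6. A full read from these ends, free of mismatches, therefore matched at most 1 member, while some Ifitm2 reads had a second possible place in the genome. Shorter reads and reads mapped with mismatches were not examined.

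The stretches around the starts of the 4 genes are shown because the letters of the ISRE were found there for Ifitm2 and Ifitm3 and not for Ifitm1 or Ifitm6. They were read from RefSeq's table (GRCm38.p6), which holds 1 start per gene, from 150 bases before that start to 30 bases from it, 5′ to 3′ along the gene. Capitals mark a short form of the ISRE, GAAA followed after 2 free bases by GAAA, and in Ifitm6 the TATA box letters TATAAA. The stretches are chr7:140967926-140968105 for Ifitm1, chr7:140955932-140956111 for Ifitm2, chr7:141010715-141010894 for Ifitm3 and chr7:141016863-141017042 for Ifitm6.
Ifitm1: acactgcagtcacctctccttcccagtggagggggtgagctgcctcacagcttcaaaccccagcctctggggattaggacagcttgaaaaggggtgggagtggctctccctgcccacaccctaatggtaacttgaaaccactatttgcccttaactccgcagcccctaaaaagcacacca
Ifitm2: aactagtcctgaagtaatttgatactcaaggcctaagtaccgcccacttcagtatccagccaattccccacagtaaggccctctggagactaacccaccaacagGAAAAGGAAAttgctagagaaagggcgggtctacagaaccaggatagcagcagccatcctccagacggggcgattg
Ifitm3: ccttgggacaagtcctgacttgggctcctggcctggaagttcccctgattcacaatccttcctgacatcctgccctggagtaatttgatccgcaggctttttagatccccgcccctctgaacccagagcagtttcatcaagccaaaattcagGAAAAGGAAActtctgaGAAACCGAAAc
Ifitm6: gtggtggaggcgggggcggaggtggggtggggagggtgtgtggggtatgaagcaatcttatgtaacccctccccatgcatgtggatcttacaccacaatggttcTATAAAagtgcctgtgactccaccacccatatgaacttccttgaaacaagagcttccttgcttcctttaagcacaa
Both strands of the whole table entry, 250 bases before to 50 bases after the start, were searched, with motifs chosen after these sequences had been seen. The ISRE letters stood once in Ifitm2, from 46 to 37 bases before the start, and as 2 copies in Ifitm3, at bases 3 to 12 and 20 to 29 counted from 1 at the start. They were found in 3.44% of 32851 promoters in the table and in 26 of 46 genes of the interferon-induced list described further on. The GAS letters TTCNNNGAA stood between the 2 copies of Ifitm3, at bases 14 to 22, partly overlapping the second copy, and in Ifitm6 from 10 to 2 bases before the start; 8.3% of promoters hold them. The TATA letters, present in 13.6% of promoters, lay from 46 to 41 bases before the start of Ifitm6 and, on the opposite strand, 175 to 170 bases before that of Ifitm2. The Ifitm1 entry held none of the 3 motifs. The starts of Ifitm1 and Ifitm6 in that table lie well inside the longer genes drawn by GENCODE, and other starts of either gene were not searched.

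Libraries held 2295967 to 6079866 counted reads, so that 3 reads corresponded to 0.493 to 1.31 CPM. CPM are reads of a gene per library total, scaled to a common size after TMM normalization over all 16 libraries, and this floor covers counting error only. Nlrp3 had 4 to 11 reads in Nlrp3-/- and 219 to 632 in WT M-MDSCs, and 21 to 59 against 744 to 1365 in G-MDSCs. Defining markers followed the labels. The sum of 11 granulocytic markers (among them S100a8, Camp and Ngp) was 116948 to 177451 CPM in G-MDSCs and 1494 to 8985 CPM in M-MDSCs, and the sum of 10 monocytic markers (among them Ly6c2, Ccr2 and Csf1r) was 6743 to 10615 CPM in M-MDSCs and 793 to 1366 CPM in G-MDSCs. The highest granulocytic sum in M-MDSCs belonged to WT replicate 2, while the other 7 libraries reached at most 2596 CPM. A gene was called higher or lower at a Benjamini-Hochberg adjusted p under 0.05 and a fold change over 1.5, that is 0.585 on the log2 scale. Adjusted p-values are over all tested genes from edgeR's quasi-likelihood test unless another tool is named.

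Ifitm1 transcripts were far more abundant in G-MDSCs than in M-MDSCs. The 4 WT M-MDSC libraries held 21.0, 15.7, 24.3 and 13.7 CPM of Ifitm1, and the 4 Nlrp3-/- M-MDSC libraries 14.3, 34.3, 34.5 and 24.5 CPM. In G-MDSCs the levels were 1813, 1259, 2275 and 1365 CPM in WT and 2069, 2705, 2748 and 3061 CPM in Nlrp3-/- mice. Each G-MDSC library thus lay far above every M-MDSC library, while the genotypes overlapped within both subsets. The M-MDSC library with the high granulocytic sum, WT replicate 2, had 15.7 CPM, within the range of the other M-MDSC libraries. Mean Ifitm1 in M-MDSCs and G-MDSCs was 18.7 and 1678 CPM in WT mice, beside mean granulocytic sums of 3541 and 137384 CPM. In Nlrp3-/- mice it was 26.9 and 2646 CPM, beside 2382 and 157315 CPM. The part of granulocytic cells in the Ifitm1 values of M-MDSCs was not tested. The fold of G-MDSCs over M-MDSCs was 89.2 in WT mice (95% interval 57.2 to 139, adjusted p = 1.74e-08) and 91.9 in Nlrp3-/- mice (60.3 to 140.0, adjusted p = 4.94e-10). Among the tested genes 0.883% in WT and 1.15% in Nlrp3-/- mice differed more between the subsets on the log2 scale, in either direction.

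**Figure D1:**
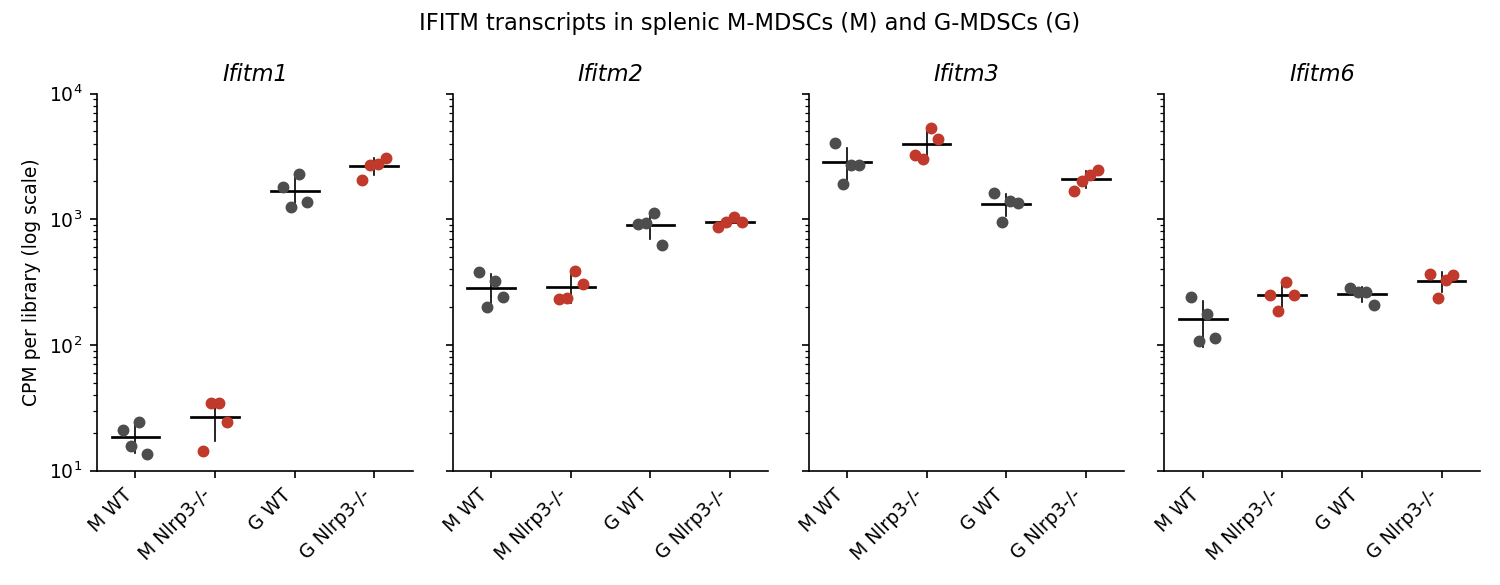
CPM of Ifitm1, Ifitm2, Ifitm3 and Ifitm6 on a log axis, with 1 point per library (grey for WT, red for Nlrp3-/- mice) and black lines for the mean (horizontal) and SD (vertical) of 4 libraries. Ifitm1 lies between 13.7 and 34.5 CPM in M-MDSCs and between 1259 and 3061 CPM in G-MDSCs, while Ifitm3 is the 1 member with higher levels in M-MDSCs.

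Ifitm2 was also higher in G-MDSCs, by a smaller factor. It measured 381, 201, 320 and 242 CPM in WT and 232, 237, 387 and 303 CPM in Nlrp3-/- M-MDSCs. The G-MDSC levels were 912, 935, 1113 and 627 CPM in WT and 874, 956, 1036 and 942 CPM in Nlrp3-/- mice. Every G-MDSC library exceeded every M-MDSC library, and within a subset the genotypes overlapped. The fold of G-MDSCs over M-MDSCs was 3.14 in WT mice (95% interval 2.20 to 4.49, adjusted p = 9.15e-05) and 3.04 in Nlrp3-/- mice (2.34 to 3.96, adjusted p = 3.61e-06). Among the tested genes 19.6% in WT and 23.1% in Nlrp3-/- mice differed more on the log2 scale, in either direction. The share of all genes whose subsets separated without overlap was not counted.

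Ifitm3 had the opposite pattern. M-MDSCs held 4037, 1917, 2684 and 2714 CPM in WT and 3234, 3040, 5278 and 4355 CPM in Nlrp3-/- mice. G-MDSCs held 1613, 959, 1390 and 1352 CPM in WT and 1684, 2005, 2229 and 2465 CPM in Nlrp3-/- mice. Within each genotype every M-MDSC library exceeded every G-MDSC library. The log2 fold change of G-MDSCs over M-MDSCs was −1.09 in WT mice (SE 0.25, adjusted p = 0.00255) and −1.04 in Nlrp3-/- mice (SE 0.19, adjusted p = 0.000415). Larger changes, in either direction, were found for 37.3% of tested genes in WT and 41.3% in Nlrp3-/- mice. By reads counted, which are not scaled by transcript length, Ifitm3 ranked between 4 and 11 among all genes in the 8 M-MDSC libraries and between 51 and 130 in the 8 G-MDSC libraries.

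Ifitm6 differed least between the subsets. Its M-MDSC levels were 240, 107, 177 and 113 CPM in WT and 248, 188, 319 and 250 CPM in Nlrp3-/- mice. In G-MDSCs they were 286, 266, 263 and 207 CPM in WT and 364, 238, 327 and 359 CPM in Nlrp3-/- mice. The ranges of the subsets overlapped in both genotypes. In WT mice Ifitm6 was called higher in G-MDSCs, with a fold of 1.60 (95% interval 1.11 to 2.32, adjusted p = 0.0315), while in Nlrp3-/- mice the fold was 1.18 (0.893 to 1.57, adjusted p = 0.299). The call in WT mice was lost with upper-quartile scaling (adjusted p = 0.12), with at least 10 counts required in every sample (adjusted p = 0.059), and when WT replicate 1, 2 or 3 of the G-MDSCs or WT replicate 2, 3 or 4 of the M-MDSCs was left out (adjusted p = 0.0535 to 0.144 over these fits). The call stayed with the mouse as a block, which pairs the subsets of a mouse. The log2 fold change was then 0.75 in WT mice (adjusted p = 0.00217) and 0.25 in Nlrp3-/- mice (adjusted p = 0.138). Scaling by total reads alone turned the estimate to −0.08 in WT and −0.47 in Nlrp3-/- mice on the log2 scale, and it moved the median of all tested genes from −0.05 to −0.79 and from −0.12 to −0.83. That scaling also moved Ifitm1 from 6.48 to 5.73 in WT and from 6.52 to 5.80 in Nlrp3-/- mice. Ifitm2 moved from 1.65 to 0.89 and from 1.61 to 0.89, and Ifitm3 from −1.09 to −1.84 and from −1.04 to −1.76. The calls of Ifitm1, Ifitm2 and Ifitm3 stayed.

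Between G-MDSCs and M-MDSCs, 3 of the 4 genes were called higher and 1 lower in WT mice, where 26.3% of all tested genes were called higher and 27.1% lower. In Nlrp3-/- mice 2 were called higher and 1 lower, against 23.7% and 27.4% of all tested genes. Comparisons of both subsets were also made within each mouse. The ratio of G-MDSC to M-MDSC CPM was 78.9 to 145 for Ifitm1 and 2.40 to 4.65 for Ifitm2, and both were higher in G-MDSCs in 8 of 8 mice. For Ifitm3 the ratio was 0.400 to 0.659 and below 1 in all 8 mice. The share of all genes with 1 direction in 8 of 8 mice was not counted. The ratio for Ifitm6 was 1.19 to 2.47 in WT and 1.02 to 1.47 in Nlrp3-/- mice. In bulk samples a higher level can come from more RNA per cell or from more cells that carry the transcript, which cannot be told apart.

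**Figure D2:**
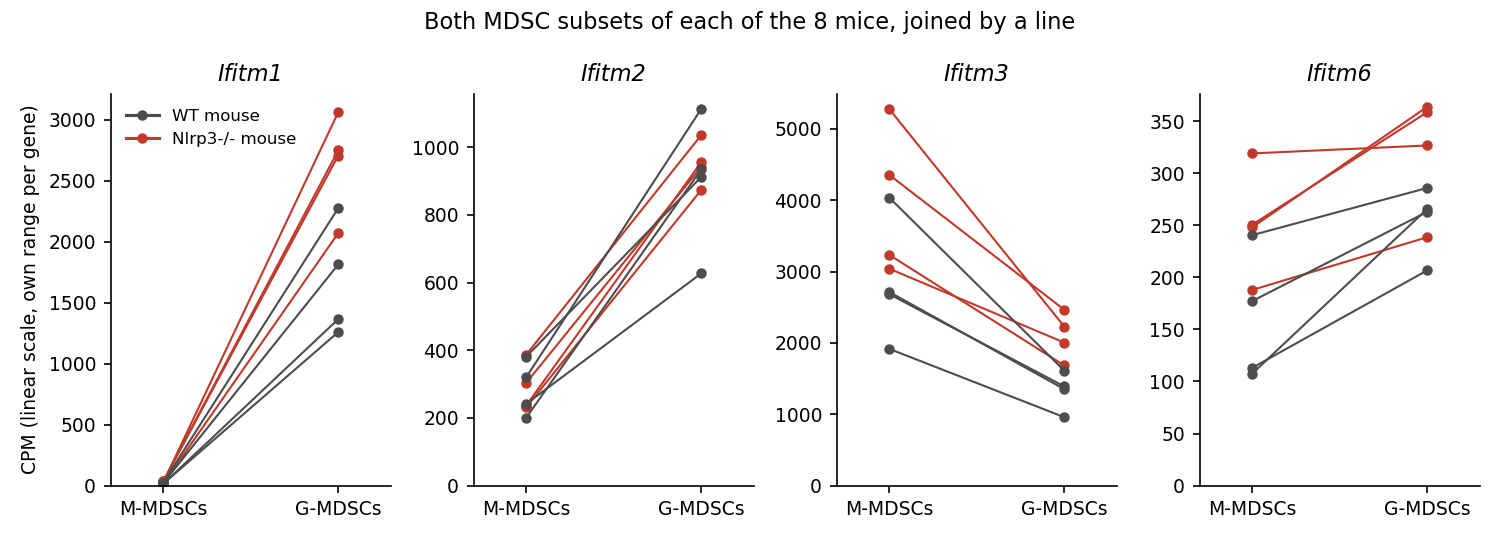
CPM of the 4 genes in both subsets of each mouse, on a linear axis with its own range per gene, each line being 1 of 4 WT (grey) or 4 Nlrp3-/- (red) mice. The lines rise from M-MDSCs to G-MDSCs for Ifitm1 and Ifitm2 and fall for Ifitm3 in all 8 mice, and those of Ifitm6 rise by a ratio of 1.02 to 2.47.

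The make-up of the reads on the 4 genes differed between the subsets. Of the reads on the 4 genes, Ifitm1 took 0.588% ± 0.165 (SD, n = 4) in WT M-MDSCs and 39.9% ± 3.62 (SD, n = 4) in WT G-MDSCs. The Ifitm3 share was 85.9% ± 1.79 (SD, n = 4) in WT M-MDSCs and 32.2% ± 5.17 (SD, n = 4) in WT G-MDSCs. Shares in Nlrp3-/- mice were 0.608% ± 0.260 and 43.9% ± 1.90 for Ifitm1 and 87.4% ± 0.716 and 34.7% ± 1.10 for Ifitm3 (SD, n = 4), in M-MDSCs and G-MDSCs. Ifitm2 made up 13.8% to 17.5% of these reads in Nlrp3-/- and 17.7% to 27.3% in WT G-MDSCs, ranges that did not overlap. In M-MDSCs its share was 6.15% to 6.76% in Nlrp3-/- and 7.84% to 9.99% in WT mice, also without overlap. A share depends on the other members too, and the CPM of Ifitm2 overlapped between genotypes in both subsets. The Ifitm2 share was not tested between genotypes. These shares of the reads on the 4 genes are the same under any scaling of the libraries.

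The study asked how loss of Nlrp3 changes the transcripts of MDSCs, and none of the 4 genes passed both thresholds between genotypes in either subset, as 0 of 4 were called in M-MDSCs and 0 of 4 in G-MDSCs. Of all tested genes, 3.51% were called higher and 7.1% lower in Nlrp3-/- M-MDSCs, and 4.7% higher and 11.7% lower in Nlrp3-/- G-MDSCs. At an unadjusted p under 0.05 the count was 1 in M-MDSCs and 2 in G-MDSCs, all higher in Nlrp3-/- mice. Such a p was also found, in either direction, for 3002 of 9986 tested genes in M-MDSCs and 2997 of 9273 in G-MDSCs. DESeq2 called 0 of the 4 in M-MDSCs and 2 in G-MDSCs, Ifitm1 and Ifitm3. Over all tested genes the median was 0.07 in M-MDSCs and 0.03 in G-MDSCs on the log2 scale.

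Ifitm3 came nearest to a call in G-MDSCs. All 4 Nlrp3-/- libraries, at 1684 to 2465 CPM, lay above all 4 WT libraries, at 959 to 1613 CPM, although the gap between the nearest libraries was small beside the range within each genotype. The share of all tested genes that separated in this way was not counted. The log2 fold change of Ifitm3 was 0.57 ± 0.18 (SE, adjusted p = 0.0416), a fold of 1.49 with a 95% interval of 1.14 to 1.95 that includes the 1.5-fold minimum. In M-MDSCs the genotypes overlapped, with 1917 to 4037 CPM in WT and 3040 to 5278 CPM in Nlrp3-/- mice, and the log2 fold change was 0.51 ± 0.24 (SE, adjusted p = 0.182). Under 20 alternatives in G-MDSCs the log2 fold change was 0.37 to 0.69 with adjusted p-values of 0.0112 to 0.348 from edgeR or DESeq2, and Ifitm3 was called under 8 of them, including the fits without Nlrp3-/- replicate 1 (0.67, adjusted p = 0.0273), WT replicate 1 (0.67, adjusted p = 0.026) or WT replicate 3 (0.61, adjusted p = 0.0491). With GC content and transcript length entered as offsets it was 0.37 (adjusted p = 0.206).

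Ifitm1 behaved similarly. In G-MDSCs 3 of the 4 Nlrp3-/- libraries lay above all WT libraries, and Nlrp3-/- replicate 1 lay below WT replicate 3. The log2 fold change was 0.57 ± 0.20 (SE, adjusted p = 0.061), a fold of 1.49 (95% interval 1.11 to 2.00). In M-MDSCs, where 40 to 201 reads per library were counted on Ifitm1, the log2 fold change was 0.53 ± 0.28 (SE, adjusted p = 0.228). Other fits in G-MDSCs gave 0.40 to 0.77, and Ifitm1 was called in 5 of 20, among them the fits without Nlrp3-/- replicate 1 (0.68, adjusted p = 0.0391) and without WT replicate 3 (0.77, adjusted p = 0.0133).

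Ifitm6 had the largest estimate of the 4 in M-MDSCs, a log2 fold change of 0.68 ± 0.26 (SE, unadjusted p = 0.0221, adjusted p = 0.104, all from edgeR's quasi-likelihood test). Of the Nlrp3-/- M-MDSC libraries 3 lay above all WT libraries, and WT replicate 1, at 240 CPM, lay above Nlrp3-/- replicate 2, at 188 CPM. Without WT replicate 1 the log2 fold change was 0.96 and Ifitm6 was called (adjusted p = 0.0324). In G-MDSCs the estimate was 0.25 ± 0.17 (SE, adjusted p = 0.332).

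Ifitm2 showed no difference between genotypes that could be detected. Its fold was 1.03 in M-MDSCs (95% interval 0.733 to 1.44, adjusted p = 0.931) and 1.00 in G-MDSCs (0.771 to 1.299, adjusted p = 0.999). The sign of its estimate changed with the fit in both subsets.

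Whether the effect of the genotype differed between the subsets was tested in a fit of all 16 libraries. The Nlrp3-/- to WT fold in G-MDSCs divided by that in M-MDSCs was 1.11 for Ifitm1 (95% interval 0.653 to 1.89), 1.05 for Ifitm2 (0.676 to 1.62), 1.13 for Ifitm3 (0.699 to 1.81) and 0.801 for Ifitm6 (0.501 to 1.28). Of the 4 genes 0 were called, with adjusted p-values of 0.992 to 0.996, 0 had an unadjusted p under 0.05 and DESeq2 called 0. Over all tested genes 0.0187% were called with a positive and 0.00935% with a negative difference. An unadjusted p under 0.05 was found for 480 of 10696 tested genes.

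**Figure D3:**
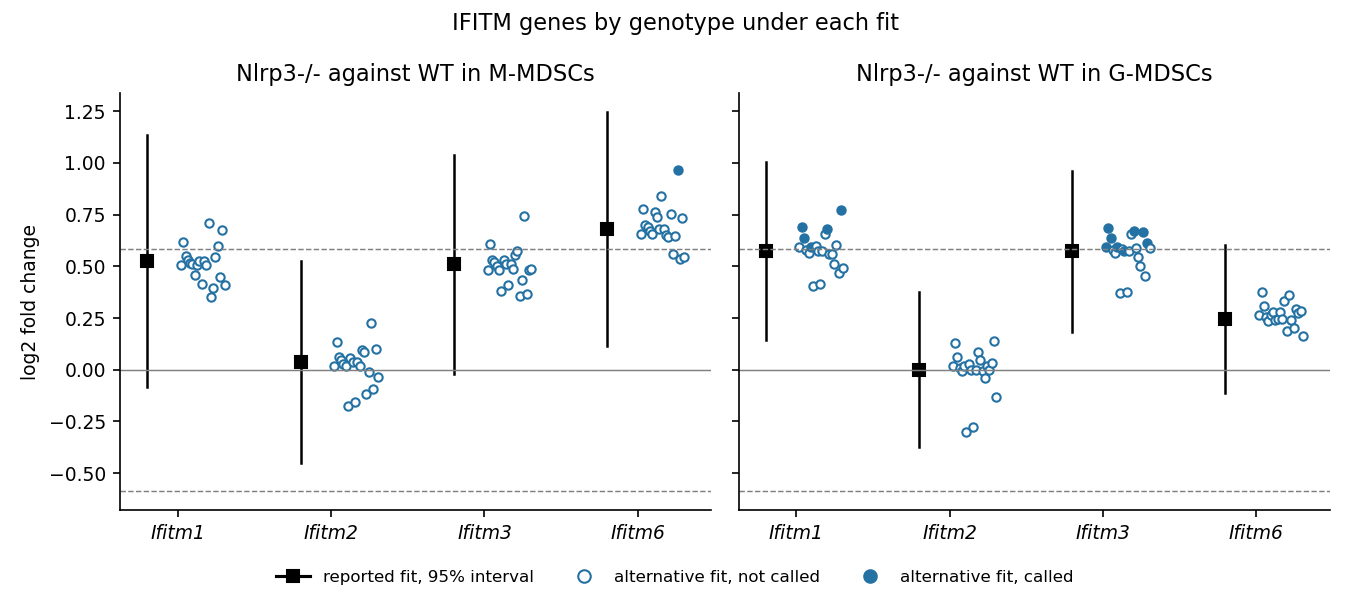
Log2 fold changes of Nlrp3-/- over WT for the 4 genes in M-MDSCs (left) and G-MDSCs (right). Squares with bars are the reported fits with 95% intervals, circles are the 20 alternatives (filled where the gene was called), and dashed lines mark a 1.5-fold change. In G-MDSCs Ifitm1 and Ifitm3 lie just under the dashed line, both at 0.57, and are called in 5 and 8 of the alternatives, while Ifitm2 lies at 0.04 in M-MDSCs and 0.00 in G-MDSCs.

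Sums of macrophage and NK cell markers moved with the genotype in the same libraries. The sum of 6 macrophage markers (C1qa, C1qb, C1qc, Cd5l, Vcam1 and Spic) was 123 to 251 CPM in Nlrp3-/- and 42.1 to 63.2 CPM in WT M-MDSCs, and 352 to 519 CPM against 77.1 to 211 CPM in G-MDSCs. For 5 NK cell markers it was 90.2 to 136 CPM against 35.1 to 70.9 CPM in M-MDSCs and 53.8 to 92.1 CPM against 21.0 to 47.9 CPM in G-MDSCs. None of these macrophage or NK markers was at 0 throughout a group. The sum of the 10 monocytic markers was also higher in Nlrp3-/- G-MDSCs, at 1132 to 1366 CPM against 793 to 1111 CPM in WT, without overlap. Their part in the IFITM values was not tested. Sums for B cells, T cells, platelets, erythroid cells, dendritic cells and vessel or stromal cells overlapped between genotypes in M-MDSCs. The granulocytic sum was 2260 to 2596 CPM in the 4 Nlrp3-/- M-MDSC libraries, and in WT it was 1494 to 1917 CPM in replicates 1, 3 and 4 and 8985 CPM in replicate 2. Of its genes Retnlg and Mmp9 were called higher in Nlrp3-/- M-MDSCs (log2 fold changes 2.44 and 2.22, adjusted p = 0.0151 and 0.0169) and 0 lower. These were the only 2 of the 10 tested granulocytic markers with a positive estimate. The median log2 fold change of the 10 was −0.66 and the lowest −1.10. The part of the granulocytic sum in the Ifitm1 values of M-MDSCs was not tested.

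Other members of the family were scarce. Ifitm5, known from bone-forming cells, lies beside Ifitm2 from 140948958 to 140950291 on the minus strand and had 2.53 to 9.82 CPM in M-MDSCs and 15.2 to 26.5 CPM in G-MDSCs. It was called higher in G-MDSCs in WT mice (log2 fold change 2.07 ± 0.32 SE, adjusted p = 0.000151) and in Nlrp3-/- mice (1.46 ± 0.32 SE, adjusted p = 0.00157), and not between genotypes (0.64 and 0.03, adjusted p = 0.271 and 0.942). Of its 326 windows of 75 bases, 62 also occurred in a predicted gene. Ifitm7, on chromosome 16, had 0 to 6 reads and Ifitm10, further along chromosome 7, had 0 to 2 reads per library, too few to be tested. Ifitm4 was not analysed here.

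The genes on both sides of the cluster were examined by position. Of the neighbours 12 were found by symbol, and 9 had enough reads to be tested, while Ric8a was not analysed here. Between genotypes their log2 fold changes were 0.12 to 1.04 in M-MDSCs (median 0.57) and 0.14 to 0.82 in G-MDSCs (median 0.29), all positive, as were those of the 4 IFITM genes (medians 0.52 and 0.41). The share of all tested genes with a positive estimate was not counted, and their medians were 0.07 and 0.03. With GC content and length as offsets the estimate of Ifitm2 was −0.17 in M-MDSCs and −0.30 in G-MDSCs. Of the 9, 1 was called higher in M-MDSCs and 0 in G-MDSCs, beside 3.51% and 4.7% of all tested genes. DESeq2 called the same numbers of neighbours. In each subset 3 of the 9 had an unadjusted p under 0.05 from edgeR. That held for 3002 of 9986 tested genes in M-MDSCs and 2997 of 9273 in G-MDSCs. Pkp3, a desmosomal plakophilin gene 67.4 kb from the start of Ifitm3, was the one called, at 40.4 ± 12.8 CPM (SD, n = 4) in Nlrp3-/- and 20.0 ± 5.14 CPM (SD, n = 4) in WT M-MDSCs, a log2 fold change of 1.04 ± 0.26 (SE, adjusted p = 0.0282). With GC content and length as offsets, or without any 1 of Nlrp3-/- replicates 2, 3 and 4 or WT replicates 2, 3 and 4, 0 of the 9 were called in M-MDSCs. Without Nlrp3-/- replicate 1, 3 were called higher, and without WT replicate 1 in G-MDSCs, 1.

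Between subsets, neighbours were called in both directions. Of the 9 tested, 2 were called higher and 2 lower in WT mice, beside 26.3% and 27.1% of all tested genes. In Nlrp3-/- mice 2 were higher and 3 lower, beside 23.7% and 27.4%. Whether calls depended on the side of the cluster was not tested. Athl1 and Bet1l, on the side of Ifitm5, were called higher in G-MDSCs in WT mice (log2 fold changes 1.24 and 0.96) and in Nlrp3-/- mice (0.92 and 0.90). Pkp3 and Rnh1, a ribonuclease inhibitor gene, on the side of Ifitm6, were called lower in WT mice (−0.89 and −1.16) and in Nlrp3-/- mice (−1.12 and −0.91), where Sigirr, a negative regulator of IL-1 and Toll-like receptor signaling, was also called lower (−1.04 ± 0.42 SE, adjusted p = 0.0495). The median log2 fold change of the 9 was −0.35 in WT and −0.26 in Nlrp3-/- mice.

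**Figure D4:**
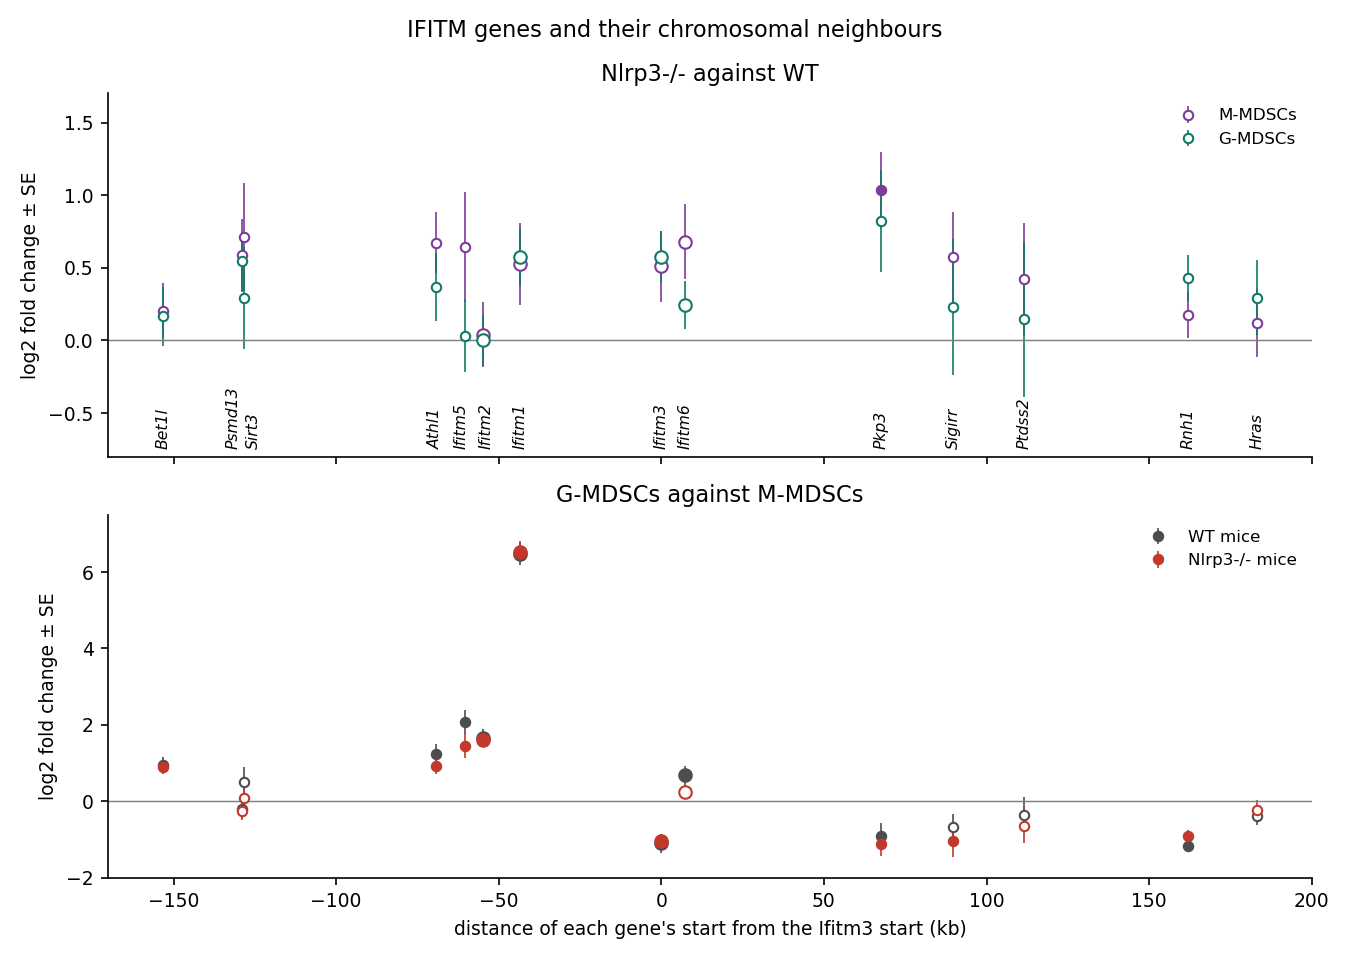
Log2 fold change with its standard error against the distance of each tested gene's start from the start of Ifitm3 in kb, for Nlrp3-/- over WT (top, M-MDSCs purple, G-MDSCs green) and G-MDSCs over M-MDSCs (bottom, WT grey, Nlrp3-/- red), with called genes filled and IFITM members drawn larger. In the top panel, from the reported fits, no gene lies below 0 and Pkp3 in M-MDSCs is the 1 filled point. The share of all tested genes above 0 was not counted. In the bottom panel Ifitm1 lies at 6.48 and 6.52 with the other genes drawn between −1.16 and 2.07.

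Proteins known to act on IFITM proteins were listed next. Zdhhc20 and Zdhhc7 attach palmitate to them, Nedd4 attaches ubiquitin, Setd7 adds and Kdm1a removes a methyl group, Fyn phosphorylates a tyrosine that the adaptor Ap2m1 reads, and others, such as Vcp, Zmpste24, Vapa, Bsg and the membrane proteins Cd81 and Cd9, bind them or act with them. All 14 genes of the list were tested. By genotype, 3.51% of all tested genes were called higher and 7.1% lower in M-MDSCs, and 4.7% and 11.7% in G-MDSCs. In M-MDSCs 1 was called higher in Nlrp3-/- mice, Cd81 (log2 fold change 0.95 ± 0.24 SE, adjusted p = 0.0282), and 1 lower, Kdm1a (−1.20 ± 0.23 SE, adjusted p = 0.00832). In G-MDSCs 0 were called higher and 3 lower, Nedd4 (−1.87 ± 0.34 SE, adjusted p = 0.00201), Kdm1a (−0.86 ± 0.24 SE, adjusted p = 0.0242) and Fyn (−0.75 ± 0.21 SE, adjusted p = 0.0262). Kdm1a was thus called lower in both subsets, at 16.5 ± 3.27 against 39.1 ± 8.70 CPM (SD, n = 4) in M-MDSCs and 19.9 ± 3.21 against 34.2 ± 8.71 CPM (SD, n = 4) in G-MDSCs. The median log2 fold change of the list was 0.13 in M-MDSCs and −0.03 in G-MDSCs. Cd81 was not called without Nlrp3-/- replicate 2 or 4 or WT replicate 1, 3 or 4 of the M-MDSCs, 4 of the 14 were called without Nlrp3-/- replicate 1, and in G-MDSCs 1 was called without Nlrp3-/- replicate 4.

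In G-MDSCs against M-MDSCs, 7 of the 14 were called higher and 1 lower in WT mice, and 6 higher and 2 lower in Nlrp3-/- mice. The shares of all tested genes were 26.3% higher and 27.1% lower in WT, and 23.7% and 27.4% in Nlrp3-/- mice. Cd9, a tetraspanin, differed most, with a log2 fold change of 4.97 in WT and 4.98 in Nlrp3-/- mice (SE 0.41 in both, adjusted p = 1.05e-06 and 1.86e-07). Zdhhc20 was higher by 0.84 and 0.63 and Setd7 by 1.44 and 1.46, and Fyn was lower, with −0.94 and −1.18, on the log2 scale.

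Interferon receptors and signaling genes, 23 in all, gave calls in both directions. In M-MDSCs, where 3.51% of all tested genes were called higher and 7.1% lower, 22 of the list were tested. Of these, 3 were called higher in Nlrp3-/- mice and 0 lower. They were the regulatory factors Irf3 (log2 fold change 0.81 ± 0.19 SE, adjusted p = 0.0204), Irf7 (0.70 ± 0.17 SE, adjusted p = 0.0231) and Irf1 (0.70 ± 0.18 SE, adjusted p = 0.0279). In G-MDSCs Irf3 and Irf7 were called higher (both 0.80, adjusted p = 0.0157 and 0.00525), and 2 genes were called lower, among them Irf2 (−0.69, adjusted p = 0.00585). There 4.7% of all tested genes were called higher and 11.7% lower. The median of the list was 0.20 in M-MDSCs and 0.19 in G-MDSCs. In M-MDSCs the 3 calls fell to 0 without Nlrp3-/- replicate 2 or WT replicate 3 or 4 and to 1 without Nlrp3-/- replicate 4, and 5 genes were called without Nlrp3-/- replicate 1. With the offsets for GC content and length 0 were called in M-MDSCs and 2 in G-MDSCs.

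A list of 60 other interferon-induced effector genes served as a yardstick for the family. In M-MDSCs 4 were called higher and 5 lower in Nlrp3-/- mice, beside 3.51% and 7.1% of all tested genes. In G-MDSCs, where 55 were tested, 4 were higher and 9 lower, beside 4.7% and 11.7%. The number called ranged from 1 to 11 in M-MDSCs and from 2 to 17 in G-MDSCs over 12 other settings that kept all libraries. Ifit3, which binds foreign RNA together with other Ifit proteins, was called higher in both subsets (log2 fold change 1.28 in M-MDSCs and 1.34 in G-MDSCs, adjusted p = 0.00137 and 0.00494), as were Ifit3b and Lgals3bp. Ifit3 and Ifit3b are close copies, so their counts are uncertain. Eif2ak2, a kinase that stops translation when it senses double-stranded RNA, was called lower in both (−0.66 and −1.03, adjusted p = 0.0462 and 0.0153), as were Xaf1 and Trim30a. The medians, 0.20 in M-MDSCs and 0.07 in G-MDSCs, lay below those of the 4 IFITM genes, 0.52 and 0.41, with no test of the difference. Left-out libraries moved the count of called effectors from 9 to between 4 (without Nlrp3-/- replicate 4 or WT replicate 2) and 13 (without Nlrp3-/- replicate 1) in M-MDSCs, with 5 without WT replicate 3 or 4, and from 13 to between 9 and 15 in G-MDSCs.

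Between subsets, 26 of the 60 effectors were called higher and 17 lower in G-MDSCs of WT mice, beside 26.3% and 27.1% of all tested genes. In Nlrp3-/- mice 25 were called higher and 14 lower, beside 23.7% and 27.4%. Slfn4, a myeloid Schlafen gene, was called higher (log2 fold change 5.35 in WT and 5.46 in Nlrp3-/- mice, adjusted p = 1.79e-08 and 4.99e-09), as was Rsad2, which encodes the antiviral enzyme viperin (3.57 and 3.45, adjusted p = 7.69e-07 and 1.19e-08). Mx1, an antiviral dynamin-like GTPase, was called lower (−4.79 and −4.92, adjusted p = 2.52e-06 and 4.18e-08), as was Bst2, which encodes tetherin (−2.53 and −2.81, adjusted p = 8.7e-05 and 8.91e-05). Among the upstream genes 12 of 23 were called higher in both genotypes, with 4 lower in WT and 5 in Nlrp3-/- mice. Ifnlr1, the receptor chain for interferon lambda, differed most (5.47 and 6.30, adjusted p = 8.62e-06 and 2.33e-07), with 0 to 7 reads per library in M-MDSCs and 34 to 221 in G-MDSCs. Irf8, a factor of monocytic fate, was called lower (−2.40 and −2.22, adjusted p = 2.99e-06 and 3.05e-08).

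**Figure D5:**
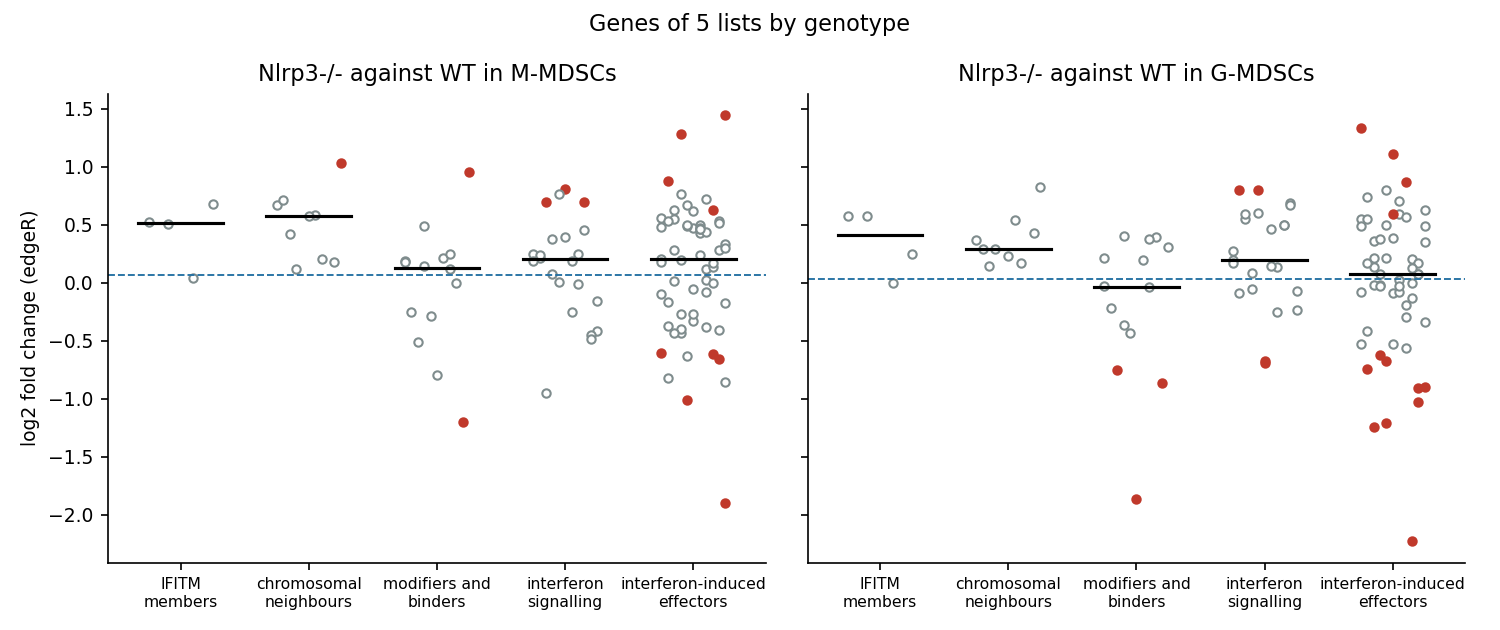
Log2 fold changes of Nlrp3-/- over WT for the tested genes of 5 lists in M-MDSCs (left) and G-MDSCs (right), with called genes in red, the median of each list as a black line and the median of all tested genes as a dashed line. The 4 IFITM genes have medians of 0.52 and 0.41 with 0 called, and the interferon-induced effectors spread from −1.90 to 1.45 and from −2.23 to 1.34.

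The genes whose levels ran most like a member's over the 16 libraries were found by Pearson correlation of log2 CPM. The libraries come from 8 mice and fall into 2 subsets, so these values are given as a description. They were Grina, Carns1 and Amica1 for Ifitm1 (r = 0.997, 0.995 and 0.995), Sema6b, Upp1 and Flot1 for Ifitm2 (0.983, 0.978 and 0.977), Ly6e, Csf1r and Eef1d for Ifitm3 (0.967, 0.964 and 0.961), and Ube3b, Tnfrsf4 and Orai3 for Ifitm6 (0.892, 0.890 and 0.877). Csf1r, the receptor that defines the monocyte lineage, is among the monocytic markers. Among the members, Ifitm1 and Ifitm2 correlated at 0.964, and Ifitm1 and Ifitm3 at −0.69. When only the deviations of the 16 libraries from their 4 group means were taken, every pair of members had a positive correlation, from 0.299 for Ifitm1 with Ifitm6 to 0.770 for Ifitm2 with Ifitm6, a quantity in which differences of scaling between libraries are shared. By those deviations the nearest genes were Mboat7 for Ifitm1 (0.920), D8Ertd738e for Ifitm2 (0.919), Lamp1, a protein of the lysosomal membrane, for Ifitm3 (0.947) and Tcn2 for Ifitm6 (0.880).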

How the data were processed

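RNA of splenic M-MDSCs and G-MDSCs from 8 tumor-bearing mice was sequenced from the 3′ end in 16 libraries. The authors mapped reads to mm10 with HISAT2 2.1.0 and counted them by gene and strand with HTSeq, per the methods and the submitters' processing notes, and the deposited values are raw counts of 24421 gene symbols per library. How reads with several matches were treated is not given in the sources used here. Counts were used as deposited, with depth of 2295967 to 6079866 per library. No 2 libraries of a group were identical (0 of 24 pairs).

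In R 4.3.3, genes passing edgeR's filterByExpr were scaled by TMM and compared with edgeR 4.0.16's quasi-likelihood test, on 4 against 4 libraries. Genotypes were compared within a subset, subsets within a genotype, and the difference of genotype effects in all 16 libraries, where FDR alone set the call. The standard error is the log2 fold change divided by the square root of F. Intervals use the t distribution of the fit. DESeq2 1.42.0 was an alternative, limma 3.58.1 was loaded by edgeR, and figures were drawn with matplotlib 3.10.9. The edgeR test of each comparison was tested on simulated data. Of the symbols, 24045 were matched to GENCODE transcripts for GC content and length, 669 of them by an older symbol. Promoters came from RefSeq (GRCm38.p6), all 4 members matched, and motifs were chosen after the sequences had been seen.

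Members, gene lists, markers and the naming rule (the 4 members, called genes of the lists, and the 3 genes most like each member) were chosen with earlier results of these data known. Same-numbered M-MDSC and G-MDSC libraries of a genotype are the same mouse by their labels, and their deviations from group means correlated at 0.0971 to 0.397 in WT and 0.00821 to 0.382 in Nlrp3-/- mice over 10696 genes. The mouse as a block changed no call of a member. WT and Nlrp3-/- libraries of 1 number are different mice. Alternatives were other scalings, filters and tests (DESeq2, edgeR's exact test), offsets for GC content and length, blocks, no fold minimum, a fit of all 16 libraries, and each library left out. Some genes of the lists are counted but not reported by name here.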

Additional observations from a re-analysis of the deposited data

How the results depend on the processing

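In Nlrp3-/- against WT M-MDSCs, the count of called IFITM genes was 0 under the 12 alternatives other than leaving out a library, and 0 to 1 with 1 library left out. In G-MDSCs it was 1 with RLE size factors, 2 with total reads alone, 2 with upper-quartile scaling, 2 with DESeq2, 1 with no fold minimum, and 0 to 2 with 1 library left out, and 0 under the others. Why these counts moved was not tested. Ifitm2 turned negative between genotypes in M-MDSCs with GC and length offsets (−0.17) and with those offsets and the replicate block together (−0.16), and ranged from −0.12 to 0.23 with 1 library left out. In G-MDSCs it was −0.0075 with at least 10 counts in every sample, −0.30 with the offsets, −0.28 with offsets and replicate block, and −0.13 to 0.14 with 1 library left out. Ifitm6 in G-MDSCs over M-MDSCs was −0.077 (WT) and −0.47 (Nlrp3-/-) with total reads alone. The difference of genotype effects for Ifitm2 was −0.0090 with RLE and with DESeq2, −0.0030 with total reads alone, −0.051 with the offsets and −0.19 to 0.24 with 1 library left out, a range that was −0.23 to 0.33 for Ifitm1 and −0.082 to 0.34 for Ifitm3. On raw library sizes the mean levels of Nlrp3-/- G-MDSCs were 2032 (Ifitm1), 734 (Ifitm2), 1609.6 (Ifitm3) and 248 CPM (Ifitm6), those of WT G-MDSCs 671, 999 and 191 CPM (Ifitm2, Ifitm3, Ifitm6), those of Nlrp3-/- M-MDSCs 36.5, 396, 5442.5 and 345 CPM, and Ifitm1 in WT M-MDSCs 23.6 CPM.

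Same-numbered WT and Nlrp3-/- libraries are different mice, and their deviations correlated at −0.452 to 0.0177 in M-MDSCs and −0.263 to −0.0438 in G-MDSCs. Blocking on the replicate number, the estimate for Ifitm3 in G-MDSCs was 0.58 on the log2 scale (adjusted p = 0.103) and Ifitm6 in M-MDSCs an adjusted p of 0.0799, both from edgeR, and 0 IFITM genes were called. Over all genes that block left 425 calls (67 higher, 358 lower) of 1060 in M-MDSCs and 985 (199, 786) of 1522 in G-MDSCs, the offsets 668 (293, 375) and 965 (410, 555), and both together 48 and 396. Leaving out 1 library gave 450 (without Nlrp3-/- replicate 4) to 1783 (without Nlrp3-/- replicate 1) in M-MDSCs. For the difference of genotype effects, 3 calls became 5 with no filter and 8 with DESeq2. Higher and lower calls were 684 and 569 in M-MDSCs, 793 and 854 in G-MDSCs, 1166 and 5061 between subsets in WT and 1146 and 5034 in Nlrp3-/- mice with total reads alone. Upper-quartile scaling gave 636 and 992, 2051 and 3324, and 2014 and 3218 in the last 3 of these, against 436 and 1086, 2557 and 2636, and 2383 and 2758 as reported. The fit of all 16 libraries gave 259 and 756 in M-MDSCs and 828 and 1079 in G-MDSCs. The median of all genes between subsets was −0.27 (WT) and −0.28 (Nlrp3-/-) with upper-quartile scaling, and between genotypes it was 0.17 and 0.16 with total reads alone. Of the 4 genes, Ifitm1 in M-MDSCs rested on the fewest reads, 40 to 201 per library.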
